A study of Mus musculus with 12 samples.

Results

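Genes that mark white blood cells were measured in polyA RNA of mouse oesophageal epithelium. The members are 44 gene names given as markers of leukocytes in general and of macrophages and monocytes, neutrophils, dendritic and Langerhans cells, T and natural killer (NK) cells, B cells and mast cells. They matched 43 of the 23337 genes listed, because Adgre1, the F4/80 antigen, appears only under its older symbol Emr1. Of these 43 genes, 32 passed the filter on low counts that left 14134 genes to test: all 8 pan-leukocyte genes, all 11 macrophage and monocyte genes, all 7 dendritic and Langerhans genes, 4 of 10 T and NK genes, 1 of 2 neutrophil genes, 1 of 2 mast cell genes and 0 of 3 B cell genes. The 11 genes below the filter were Csf3r, Cd8a, Nkg7, Klrd1, Klrb1c, Gzma, Gzmb, Cd79a, Cd79b, Ms4a1 and Cpa3, with 0 to 76 counts each over all 12 libraries.

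The study crossed 2 genetic changes in the oesophageal epithelium of C57BL/6 mice, with 3 libraries in each of 4 groups, all taken at 6 weeks of age. The Control group carried ROSA26-StopFL-Ikk2ca+/L and Stat3L/L with no Cre. The Ikkβca group carried ED/L2-Cre+ and ROSA26-StopFL-Ikk2ca+/L, which switches on a constitutively active IKKβ, the kinase that releases NF-κB. The Stat3KO group carried ED/L2-Cre+ and Stat3L/L, which deletes the transcription factor STAT3, and the Ikkβca+Stat3KO group, called the combined group, carried all 3 alleles. Cre was driven by the ED/L2 promoter of Epstein-Barr virus, which is active in oesophageal epithelial cells. Cre was therefore present in every group except Control, and its presence cannot be told apart from the changes it makes in any comparison with Control. The epithelium was peeled mechanically from the stroma, and any leukocytes lying between the epithelial cells would have come with it. The labels do not say whether libraries of a group came from separate mice, so p-values measure the spread between these libraries.

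Leukocytes are recognised by proteins that their lineages share, such as the phosphatase CD45, and by others that belong to 1 branch. Langerhans cells and related dendritic cells sit within stratified epithelia, where they take up antigen; langerin marks the Langerhans type, and CD11c and CD86 mark dendritic cells more widely. In bulk RNA, fewer cells of a type and less RNA per cell cannot be told apart.

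Promoter sequences of 3 dendritic genes are shown because these 3 had the largest log2 fold changes among the tested members in Ikkβca against Control. Each is the 250 bases before the RefSeq gene start (GRCm38.p6), written 5′ to 3′ on the strand of the gene, at chr7:128129300-128129549 (+) for Itgax, chr6:83677858-83678107 (−) for Cd207 and chr5:147400490-147400739 (−) for Flt3. Capitals mark a match to GAGGAAG, a motif of the ETS factor PU.1, on either strand.
Itgax: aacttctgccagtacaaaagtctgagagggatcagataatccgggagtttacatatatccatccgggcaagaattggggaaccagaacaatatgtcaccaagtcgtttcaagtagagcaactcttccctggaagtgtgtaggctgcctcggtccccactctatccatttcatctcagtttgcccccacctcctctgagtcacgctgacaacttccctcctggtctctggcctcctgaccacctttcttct
Cd207: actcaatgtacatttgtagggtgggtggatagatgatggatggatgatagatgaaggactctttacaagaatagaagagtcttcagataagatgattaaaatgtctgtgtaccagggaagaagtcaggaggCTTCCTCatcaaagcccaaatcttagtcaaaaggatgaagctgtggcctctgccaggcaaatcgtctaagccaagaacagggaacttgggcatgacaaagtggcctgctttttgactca
Flt3: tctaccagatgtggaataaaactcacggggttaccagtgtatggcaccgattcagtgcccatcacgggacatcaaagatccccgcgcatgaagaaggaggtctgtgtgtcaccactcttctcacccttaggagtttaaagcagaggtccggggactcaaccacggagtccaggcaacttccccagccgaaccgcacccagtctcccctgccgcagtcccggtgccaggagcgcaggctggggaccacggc
The match in Cd207 lies on the opposite strand, 119 to 113 bases before the start. Itgax and Flt3 held no match in this window to GAGGAAG, to TGTGGT (a RUNX motif), to TTCNNNGAA (a STAT motif) or to the kappa B consensus, and Cd207 held none to the other 3. The 30 members with a promoter entry had 35 such windows. Of these windows 12 held GAGGAAG on either strand, 9 TGTGGT, 2 TTCNNNGAA and 3, of Fcgr3 and C1qc, the kappa B consensus. Of all 32851 RefSeq promoter windows of this length, 10.6% held GAGGAAG, 14% TGTGGT, 7.02% TTCNNNGAA and 3.9% the kappa B consensus. These matches describe letters only.

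Library totals ran from 14816468 to 30188363 counts, and the members took 0.00601 to 0.0253% of them. Levels are given as CPM, counts divided by the TMM-scaled library size. Ikbkb lay at 83.4 to 97.6 CPM in the 6 libraries with the active IKKβ allele and Cre and at 59.7 to 82.6 in the other 6. Stat3 lay at 139 to 154 CPM in Stat3KO against 157 to 179 in Control, and at 154 to 194 in the combined group against 158 to 239 in Ikkβca, so those last 2 groups overlapped. Replicate 1 of each group carried Xist and replicates 2 and 3 Ddx3y. Transcripts of stomach genes summed to 1708 CPM in Ikkβca replicate 1 and to 113 in Stat3KO replicate 3, against 0.0860 to 18.7 elsewhere. The suprabasal keratins Krt4 and Krt13 together took 4.05 to 6.62% of counts in 6 libraries and 10.4 to 13.9% in the other 6, with both kinds of library in every group.

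**Figure D1:**
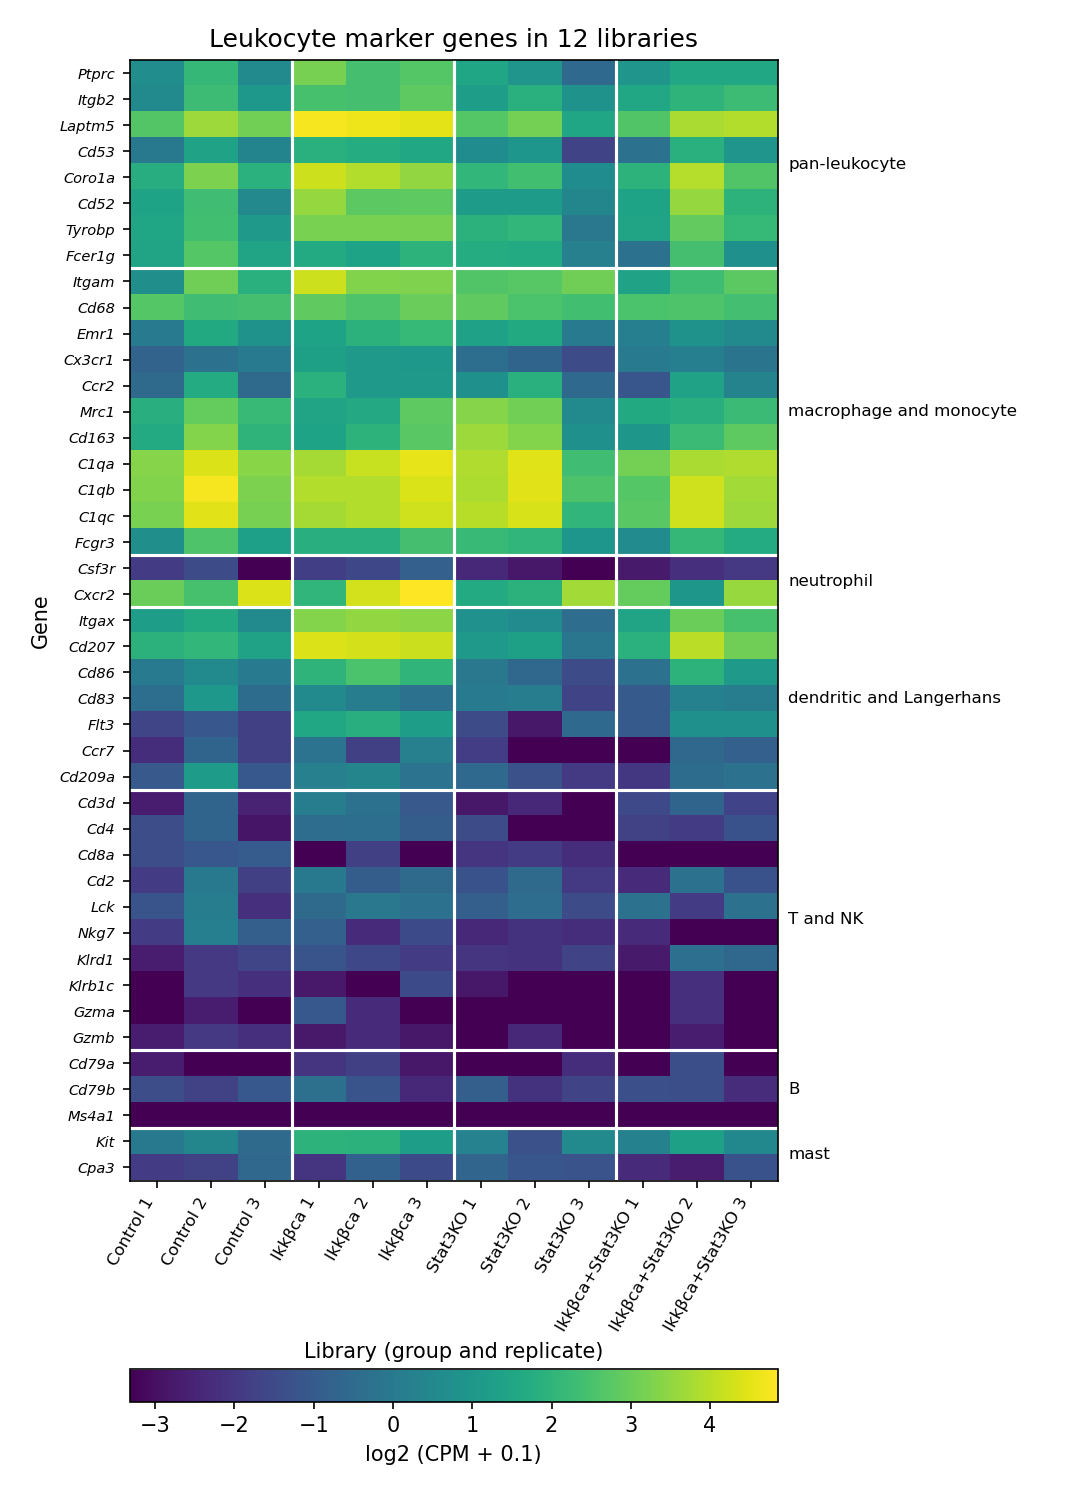
Level of each of the 43 leukocyte marker genes in each of the 12 libraries, grouped by cell class, in TMM-scaled CPM. The dendritic and Langerhans genes Itgax, Cd207, Cd86 and Flt3 are highest in the 3 Ikkβca libraries, and Ms4a1 is at 0 throughout.

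Of 7 Langerhans and dendritic cell genes, 2 passed the test against Control. Itgax and Cd207 rose in Ikkβca, by 4.85-fold and 5.72-fold. They were the 2 of 32 tested members that passed edgeR's quasi-likelihood test at a Benjamini-Hochberg adjusted p below 0.05, and no member fell. Of all genes tested, 0.899% rose and 0.0566% fell. DESeq2 called 7 members higher, where it called 2.22% of all genes higher, and 13 of the 32 had an unadjusted p below 0.05 in edgeR, as did 13% of all genes. Over 6 libraries with the active kinase against 6 without, 4 of the 7 genes of this class rose, Itgax, Cd207, Cd86 and Flt3.

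Itgax encodes CD11c, an integrin chain of dendritic cells (chr7:128129547-128150657, + strand, mm10). Its level was 2.24, 3.03 and 1.41 CPM in Control, 10.03, 11.5 and 10.8 in Ikkβca, 1.67, 1.45 and 0.654 in Stat3KO and 2.65, 8.01 and 5.5 in the combined group. The Ikkβca libraries lay above all others, and the combined group spread from the level of Control to near that of Ikkβca. The log2 fold change of Ikkβca against Control was 2.28 ± 0.44 (SE, n = 3 and 3, edgeR adjusted p = 0.0391). Without Control replicates 1, 2 or 3 in turn the adjusted p was 0.184, 0.0915 and 0.0988. Without Ikkβca replicates 1, 2 or 3 it was 0.0685, 0.137 and 0.113. Without Stat3KO replicates 1 or 2 or combined replicate 3, which only inform the shared spread, it was 0.0559, 0.0657 and 0.0690. It was 0.0509 with only the 2 groups compared in the fit, 0.145 with library totals and 0.0601 without both libraries rich in stomach transcripts. Its log2 fold change stayed between 2.02 and 2.57.

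Cd207 encodes langerin, the lectin that builds the Birbeck granules of Langerhans cells (chr6:83671215-83677857, − strand). It was at 3.69, 4.13 and 2.51 CPM in Control, 21.1, 19.8 and 18.1 in Ikkβca, 2.03, 2.42 and 0.818 in Stat3KO and 3.6, 16.0 and 8.32 in the combined group. Combined replicate 1 lay within the Control range, whereas the 3 Ikkβca libraries lay close together. Ikkβca differed from Control by a log2 fold change of 2.52 ± 0.50 (edgeR adjusted p = 0.0414). Leaving out a library of the 2 groups compared gave 0.184, 0.12 and 0.10 for Control replicates 1, 2 and 3 and 0.0834, 0.133 and 0.108 for Ikkβca replicates 1, 2 and 3. Leaving out Stat3KO replicate 1, Stat3KO replicate 2 or combined replicate 3 gave 0.0719, 0.0587 and 0.0740. It also lost the call with library totals (0.144) and without both libraries rich in stomach transcripts (0.0677). Over the fits without 1 library its log2 fold change ranged from 2.32 to 2.67.

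Cd86 encodes a ligand that co-stimulates T cells and is carried by activated antigen-presenting cells (chr16:36603869-36666081, − strand). It was at 0.951, 1.41 and 0.953 CPM in Control, 3.88, 5.71 and 3.998 in Ikkβca, 0.856, 0.571 and 0.273 in Stat3KO and 0.751, 3.77 and 1.99 in the combined group. The groups Ikkβca and Control did not overlap, but the difference of 2.03 ± 0.54 did not pass (edgeR adjusted p = 0.156). DESeq2's Wald test called it (adjusted p = 0.0108).

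Flt3, the receptor tyrosine kinase that dendritic cell precursors need (chr5:147330741-147400489, − strand), was low in every library. It was at 0.224, 0.366 and 0.191 CPM in Control, 2.79, 3.43 and 2.28 in Ikkβca, 0.270, 0.0439 and 0.6 in Stat3KO and 0.400, 1.63 and 1.62 in the combined group. Its log2 fold change of 3.43 ± 0.73 in Ikkβca against Control missed the threshold (edgeR adjusted p = 0.0579), and DESeq2 called it (adjusted p = 2.07e-04). The adjusted p was 0.0383 without Stat3KO replicate 2, 0.0463 without Stat3KO replicate 3 and 0.0428 without combined replicate 1.

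The remaining genes of the class were Cd83, Ccr7 and Cd209a. Cd83, a glycoprotein of mature dendritic cells, was at 0.671, 1.93 and 0.648 CPM in Control, 1.42, 1.02 and 0.731 in Ikkβca, 0.901, 1.01 and 0.218 in Stat3KO and 0.400, 1.10 and 0.994 in the combined group. All 4 groups overlapped, and the log2 fold change of Ikkβca against Control was -0.03 ± 0.62 (edgeR adjusted p = 0.989). Ccr7, the receptor that guides dendritic cells to lymph nodes, had group means of 0.275 CPM in Control and 0.675 in Ikkβca, on 17 and 45 counts. Its libraries overlapped, at 0.112 to 0.523 CPM in Control and 0.193 to 1.07 in Ikkβca, and it was not called. Cd209a, a lectin of dermal and monocyte-derived dendritic cells, had group means of 0.972 CPM in Control and 1.02 in Ikkβca.

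**Figure D2:**
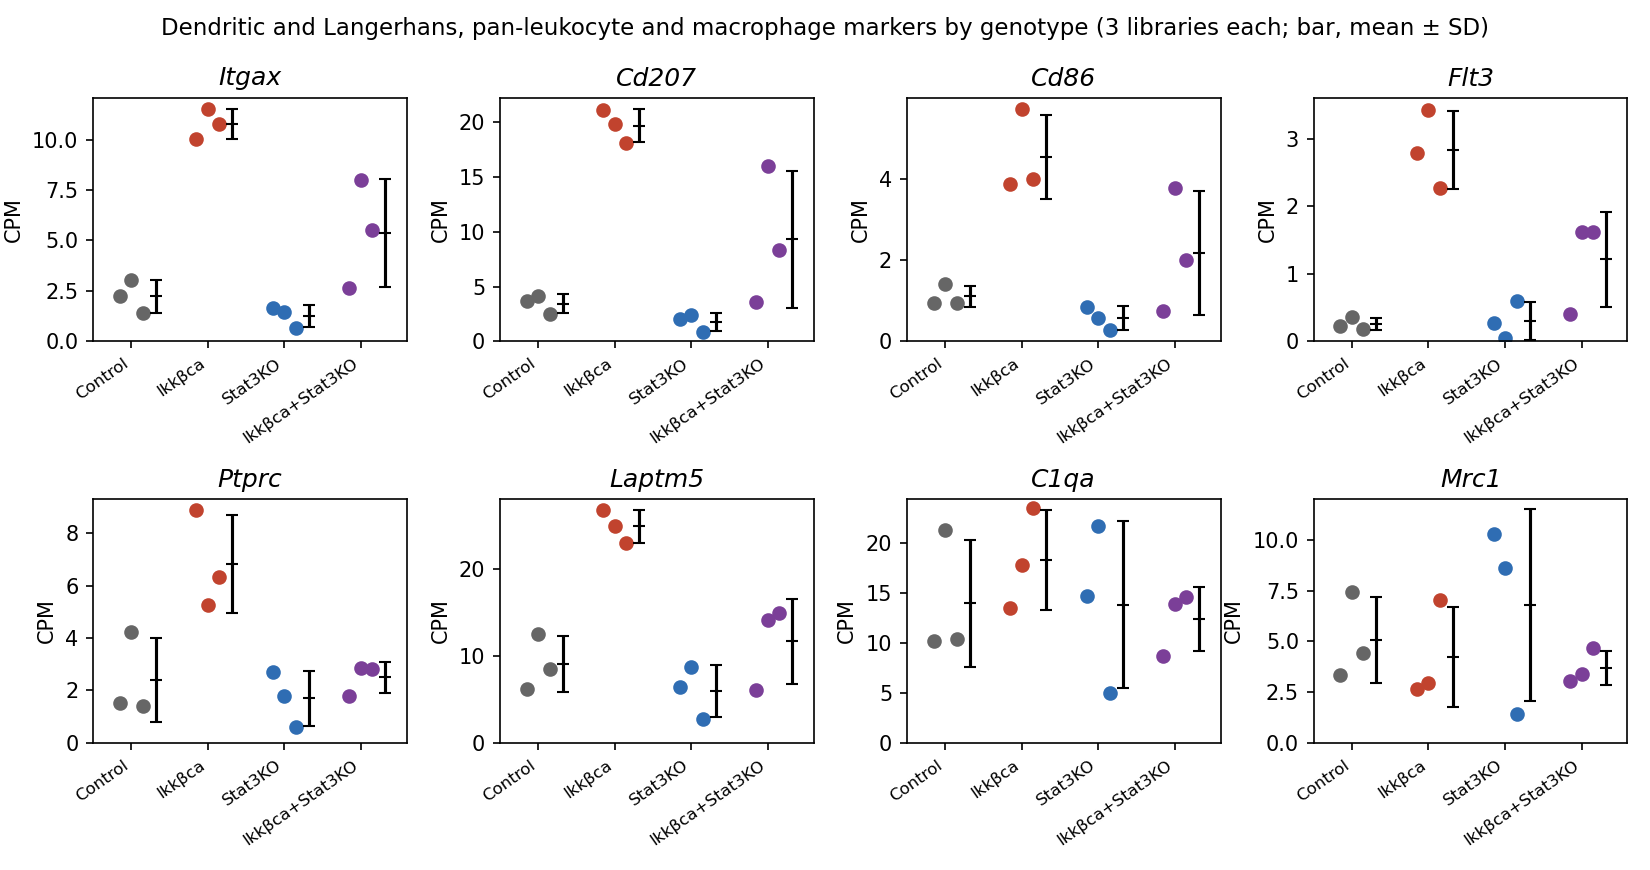
Level of Itgax, Cd207, Cd86, Flt3, Ptprc, Laptm5, C1qa and Mrc1 in the 4 groups, in TMM-scaled CPM. Each library is a point, with the mean ± SD of 3 libraries beside it. Neutrophil, T and NK, B and mast cell genes are not drawn. Itgax and Cd207 separate Ikkβca from Control, while C1qa, the macrophage complement gene, overlaps across all groups.

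The comparison over both Stat3 backgrounds set the 6 libraries with the active kinase against the 6 without, and reused the libraries described above. It called 5 of 32 members higher and 0 lower, where 2.12% of all genes tested were called higher and 0.594% lower. DESeq2 called 9, against 3.64% of all genes. In edgeR 13 had an unadjusted p below 0.05, against 15.5% of all genes, and 29 lay above 0, against 50.1%. The log2 fold changes were 2.18 ± 0.32 for Itgax (edgeR adjusted p = 0.00432), 2.45 ± 0.36 for Cd207 (adjusted p = 0.00427), 1.97 ± 0.39 for Cd86 (adjusted p = 0.0243), 2.72 ± 0.51 for Flt3 (adjusted p = 0.0184) and 1.20 ± 0.28 for Cx3cr1 (adjusted p = 0.0462). For Itgax, Cd207, Cd86 and Flt3, 5 of 6 libraries with the active kinase lay above all 6 without, the exception being combined replicate 1. Itgax and Cd207 were called in 19 of 19 alternative analyses, Flt3 in 15, Cd86 in 12 and Cx3cr1 in 4. Flt3 lost its call without Control replicate 1 (adjusted p = 0.0576), Ikkβca replicate 2 (0.0509), Stat3KO replicate 1 (0.0576) or combined replicate 3 (0.0555). Cd86 lost it without Control replicate 1 (0.0713), Ikkβca replicate 2 (0.0673), Ikkβca replicate 3 (0.0513), Stat3KO replicate 2 (0.0742) or combined replicate 3 (0.0568), and without both libraries rich in stomach transcripts (0.0580) or with scaling by library totals (0.0646). The count of called members was 2 without Control replicate 1, Ikkβca replicate 2 or combined replicate 3, and 3 without Ikkβca replicate 3, Stat3KO replicate 1 or Stat3KO replicate 2.

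**Figure D3:**
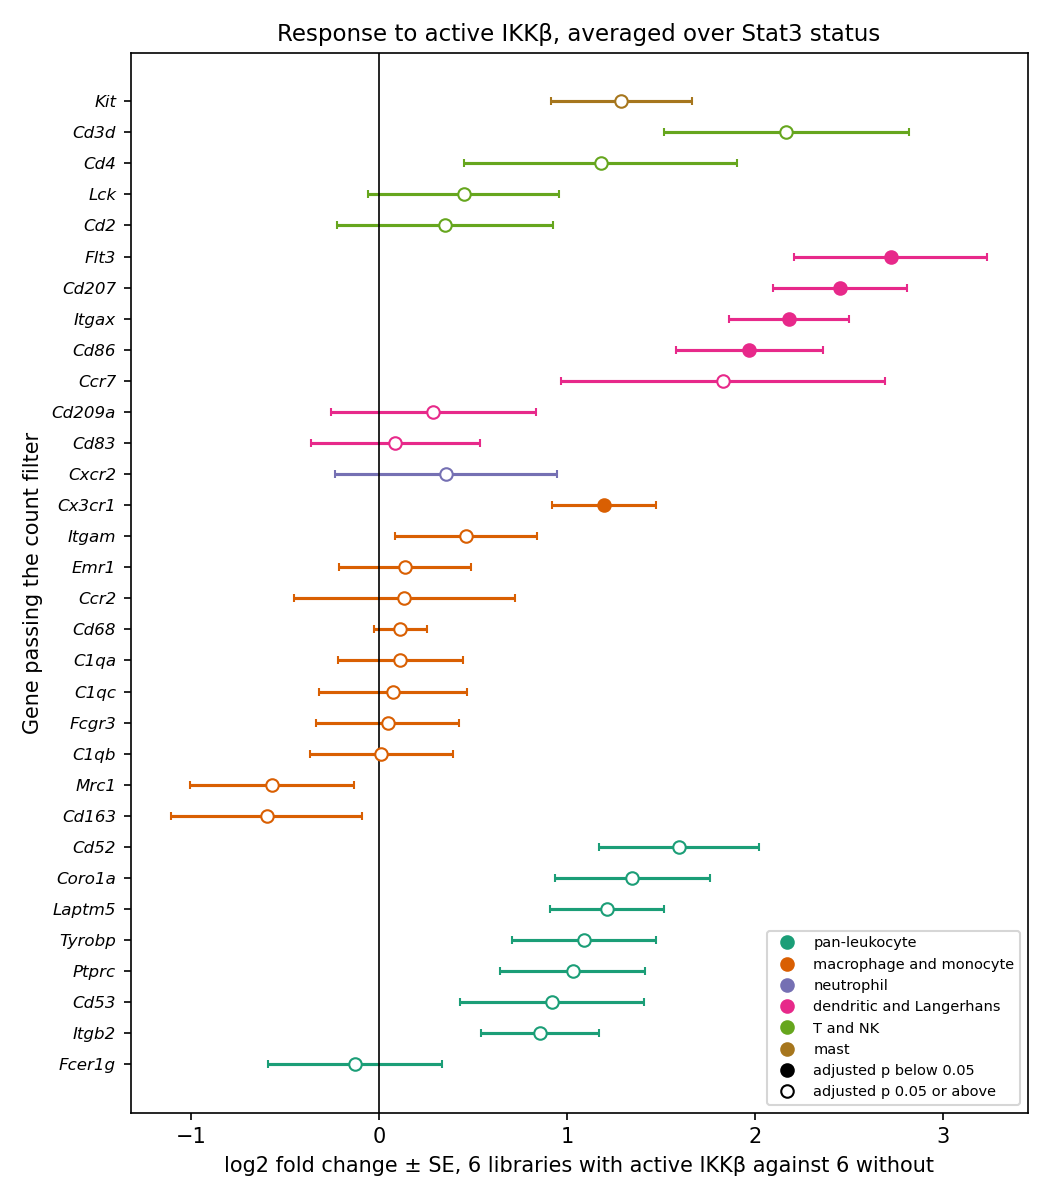
Log2 fold change of the 32 tested members over 6 libraries with the active kinase against 6 without, with bars of 1 SE from the edgeR fit, ordered by cell class. The 5 called members, Itgax, Cd207, Cd86, Flt3 and Cx3cr1, lie between 1.20 and 2.72, and the complement genes C1qa, C1qb and C1qc lie near 0.

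A further list of antigen-presentation and dendritic genes was read in the same comparison. Of 16 listed genes 12 were tested and 6 were called higher, 0 lower, with 9 above 0 and 3 below. Runx3, a transcription factor of Langerhans and T cells, lay at 0.901 to 3.17 CPM with the active kinase and at 0.218 to 0.470 without, with no overlap, and rose by a log2 fold change of 2.51 ± 0.30 (edgeR adjusted p = 0.00107). H2-DMb2, which helps load peptide on MHC class II, rose by 3.16 ± 0.44 (adjusted p = 0.0031), Ly75, the DEC-205 antigen receptor, by 2.28 ± 0.36 (adjusted p = 0.0068) and Ciita, the master regulator of MHC class II genes, by 1.74 ± 0.29 (adjusted p = 0.0089). The other called genes were Cd74, the MHC class II invariant chain, and H2-Ab1, an MHC class II chain. Those below 0 were the lectin genes Clec10a (-0.54 ± 0.41, 107 counts with the active kinase and 167 without, adjusted p = 0.567) and Clec4a3 (-0.40 ± 0.43, 59 counts and 69, adjusted p = 0.70), and Epcam, which Langerhans and many epithelial cells carry (-0.14 ± 0.11, adjusted p = 0.601). Epithelial cells can also express MHC class II genes, and their part in these values was not tested.

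Genes of the pan-leukocyte list were higher in Ikkβca than in Control in most cases, but 0 of 8 passed the edgeR test. Of the 8, 6 had an unadjusted p below 0.05 in edgeR and 1, Laptm5, was called by DESeq2. The 8 tested genes had a median log2 fold change of 1.46, 7 of 8 above 0, and in those 7 all Ikkβca libraries lay above all Control libraries. Over all genes tested the median was 0.00 and 9.34% did not overlap in this direction. Among the 32 tested members together, 14 did not overlap in this direction, 28 were above 0 against 50.7% of all genes, and the median was 1.09. The filter could let a member pass through the group where it is high, so these counts are a description.

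Ptprc encodes CD45, the phosphatase on nearly all leukocytes. It was at 1.51, 4.23 and 1.41 CPM in Control, 8.89, 5.27 and 6.32 in Ikkβca, 2.70, 1.80 and 0.6 in Stat3KO and 1.80, 2.85 and 2.83 in the combined group. Ikkβca lay above the other 9 libraries, while Control replicate 2 lay above all of Stat3KO and the combined group. Against Control the log2 fold change in Ikkβca was 1.52 ± 0.54 (edgeR adjusted p = 0.277).

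Laptm5, a lysosomal protein of blood cells, was at 6.21, 12.5 and 8.46 CPM in Control, 26.9, 25.0 and 23.0 in Ikkβca, 6.44, 8.74 and 2.73 in Stat3KO and 6.06, 14.1 and 14.9 in the combined group. The Ikkβca libraries again lay above all others. In Ikkβca against Control it differed by 1.46 ± 0.43 on the log2 scale (edgeR adjusted p = 0.188), and DESeq2 called it (adjusted p = 0.0320). Over both backgrounds it was 1.21 ± 0.30 (edgeR adjusted p = 0.0650), called by DESeq2 (adjusted p = 0.00332) and by edgeR without combined replicate 1 (adjusted p = 0.0319) or with the replicate number as a block (adjusted p = 0.0497).

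Tyrobp, the DAP12 signalling adaptor of myeloid and NK cells, was at 2.74, 5.12 and 2.06 CPM in Control, 9.17, 9.14 and 8.94 in Ikkβca, 3.69, 4.13 and 0.873 in Stat3KO and 2.65, 7.38 and 4.40 in the combined group. The 3 Ikkβca values were nearly equal and above all others. The log2 fold change against Control was 1.46 ± 0.54 (edgeR adjusted p = 0.294). Itgb2, the shared chain of leukocyte integrins, Cd53, a tetraspanin, Coro1a, an actin-binding protein, and Cd52, a surface glycoprotein, had log2 fold changes of 1.08 to 1.53 and did not pass. Over both backgrounds Cd52 and Coro1a were called by DESeq2 (adjusted p = 0.00446 and 0.0220) and not in the main edgeR fit. With the replicate block edgeR called them (0.0375 and 0.0409). It also did so with the Krt4 and Krt13 share as a covariate, chosen after seeing the data (0.00168 and 0.0240). Fcer1g, the common Fc receptor gamma chain, was the exception in direction, at 3.89 ± 2.19 CPM in Control and 3.17 ± 0.63 in Ikkβca (SD, n = 3), a log2 fold change of -0.29 ± 0.65. Exons of Coro1a and Cd52 overlap those of Bola2 and Crybg2 on the opposite strand, and the strand setting of the counting is not given in the sources used here.

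Macrophage and monocyte genes had a median log2 fold change of 0.33 in Ikkβca against Control, and 0 of 11 were called by edgeR, with 2 at an unadjusted p below 0.05 and 1, Cx3cr1, called by DESeq2. Complement component C1q, which tissue macrophages make, had the highest levels per length of all members in Control, as RPKM (CPM divided by transcript length in kilobases): C1qb at 14.0 ± 9.01, C1qa at 13.4 ± 6.12 and C1qc at 11.2 ± 6.29 RPKM (SD, n = 3), against 2.26 ± 0.55 for Cd207. In Ikkβca, Cd207 was at 12.9 ± 0.99 RPKM and C1qa at 17.6 ± 4.82. C1qa was at 10.2, 21.3 and 10.4 CPM in Control, 13.5, 17.8 and 23.5 in Ikkβca, 14.7, 21.7 and 5.02 in Stat3KO and 8.71, 13.9 and 14.6 in the combined group. These ranges overlapped in every pair of groups, and the log2 fold change of Ikkβca against Control was 0.39 ± 0.47 (edgeR adjusted p = 0.765).

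Cd68, a lysosomal glycoprotein of macrophages, varied least among the defining genes of this class. It was at 6.32, 4.97 and 5.30 CPM in Control, 7.14, 5.90 and 7.74 in Ikkβca, 7.21, 5.71 and 5.13 in Stat3KO and 5.71, 5.98 and 5.18 in the combined group. Its log2 fold change in Ikkβca against Control was 0.33 ± 0.20 (edgeR adjusted p = 0.527). Emr1 was at 0.951, 3.03 and 1.75 CPM in Control, 2.55, 3.72 and 4.39 in Ikkβca, 2.48, 3.03 and 0.927 in Stat3KO and 1.05, 1.74 and 1.41 in the combined group. Ikkβca overlapped Control, and the log2 fold change was 0.89 ± 0.49 (edgeR adjusted p = 0.473).

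Mrc1, the mannose receptor of resident macrophages, was at 3.36, 7.42 and 4.42 CPM in Control, 2.65, 2.95 and 7.05 in Ikkβca, 10.3, 8.61 and 1.42 in Stat3KO and 3.05, 3.37 and 4.66 in the combined group. Replicates of Stat3KO differed more from each other than the groups did. The log2 fold change of Ikkβca against Control was -0.26 ± 0.62 (edgeR adjusted p = 0.891). Cd163, the haemoglobin scavenger receptor, gave -0.37 ± 0.72.

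Cx3cr1, the fractalkine receptor of monocytes and resident macrophages, was the called member of this class over both backgrounds. It was at 0.503, 0.732 and 0.953 CPM in Control, 2.41, 2.03 and 1.93 in Ikkβca, 0.676, 0.527 and 0.273 in Stat3KO and 0.901, 1.05 and 0.785 in the combined group. Ikkβca lay above all other libraries, and the combined group overlapped Control. Against Control the log2 fold change in Ikkβca was 1.52 ± 0.38 (edgeR adjusted p = 0.118; DESeq2 adjusted p = 0.0118). The call over both backgrounds was lost without 11 of the 12 libraries in turn, all except Control replicate 3, at adjusted p of 0.0576 to 0.114. It was also lost without both libraries rich in stomach transcripts (0.115), with scaling by library totals (0.139), with no count filter (0.0695) and with the replicate number as a block (0.0646). An exon of Cx3cr1 overlaps Gm33858 on the opposite strand.

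Itgam, the CD11b integrin chain of monocytes, macrophages and neutrophils, was at 18.7 CPM in Ikkβca replicate 1 and at 9.87 and 9.54 in the other 2 Ikkβca libraries. It was at 1.57, 8.36 and 3.58 in Control, 6.08, 6.50 and 8.40 in Stat3KO and 2.5, 4.88 and 6.75 in the combined group. The highest Ikkβca and the highest Stat3KO values belonged to the 2 libraries rich in stomach transcripts; the part of those transcripts was not tested. Itgam shares exons with Gm49368 on the same strand. In the interaction of the 2 genotypes Itgam had the single unadjusted p below 0.05 among members (log2 difference -2.06 ± 0.76, edgeR adjusted p = 1.0), where 4.66% of all genes had one.

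A further list of 14 macrophage and monocyte genes, 12 of them tested, had 0 called by edgeR over both backgrounds, 4 at an unadjusted p below 0.05 and 2 called by DESeq2. These 2 were Csf1r, the receptor for CSF1, at 1.09 ± 0.32 (edgeR adjusted p = 0.13), and Ctss, the cathepsin that trims the MHC class II invariant chain, at 1.28 ± 0.38 (edgeR adjusted p = 0.12). They are named after their values were seen. Lyz2 stood at 269 CPM in Ikkβca replicate 1, against 11.6 to 49.9 in the other 11 libraries.

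Neutrophil markers were low or overlapped between the groups. Csf3r, the G-CSF receptor, was below the filter at 0 to 0.473 CPM and had no counts in Control replicate 3 or Stat3KO replicate 3, which allows up to 0.0994 and 0.154 CPM there. Of 13 further neutrophil genes 11 were found and 0 passed the filter; Cxcr1 and Elane had no counts in any library. Cxcr2, a receptor for CXCL chemokines on neutrophils, was at 8.0, 5.44 and 21.1 CPM in Control, 4.02, 19.4 and 28.8 in Ikkβca, 3.06, 3.73 and 13.0 in Stat3KO and 7.51, 1.92 and 11.99 in the combined group. All 4 groups overlapped, and the log2 fold change of Ikkβca against Control was 0.59 ± 0.83 (edgeR adjusted p = 0.803). In the 6 libraries with the higher Krt4 and Krt13 share, Cxcr2 was at 7.51 to 28.8 CPM with a median of 16.2, and in the other 6 at 1.92 to 8.0 with a median of 3.88. The libraries were divided at the widest gap in that share after the values were seen, and no test was made.

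**Figure D4:**
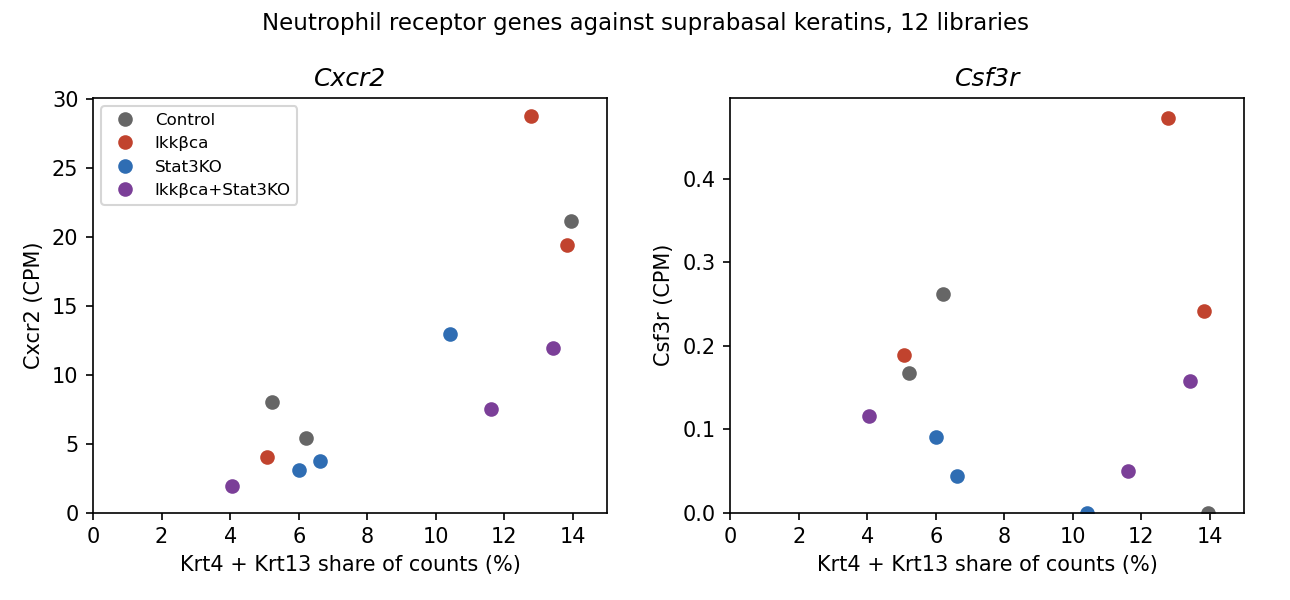
Cxcr2 level in TMM-scaled CPM against the share of counts taken by Krt4 and Krt13, 1 point per library, coloured by group. The 6 libraries at 10.4 to 13.9% have Cxcr2 at 7.51 to 28.8 CPM and the 6 at 4.05 to 6.62% have it at 1.92 to 8.0.

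T and NK genes were near the limit of what these libraries could count. The 4 tested genes, Cd3d, Cd4, Cd2 and Lck, had log2 fold changes of 0.64 to 1.69 in Ikkβca against Control; 0 were called by edgeR, 0 had an unadjusted p below 0.05 and 0 were called by DESeq2. Cd3d, a chain of the T cell receptor complex, was at 0.0559, 0.523 and 0.0762 CPM in Control, 0.993, 0.725 and 0.387 in Ikkβca, 0.0451, 0.0879 and 0 in Stat3KO and 0.250, 0.523 and 0.209 in the combined group. Control replicate 2 reached into the Ikkβca range. Over both backgrounds the log2 fold change was 2.17 ± 0.65 on 63 counts against 16 (edgeR adjusted p = 0.128), and it was called without Control replicate 2 (2.96, adjusted p = 0.0405). Lck shares an exon with a microRNA gene on its strand.

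Cd8a, the co-receptor of cytotoxic T cells, ran the other way. It had 5, 7 and 11 counts in Control, 0, 4 and 0 in Ikkβca, 3, 4 and 2 in Stat3KO and 0 in each combined library, so 5 of the 6 libraries with the active kinase had none. That is 4 counts over 6 libraries against 32 over the other 6, a ratio of 0.130 with an exact 95% counting interval of 0.0335 to 0.367, which covers counting error only. With no count filter edgeR did not call it (adjusted p = 0.141). Klrd1, the CD94 chain of NK receptors, lay at 0.0501 to 0.697 CPM with the active kinase and at 0.0559 to 0.229 without. Gzma, a granzyme, had counts in 4 libraries only, Control replicate 2, Ikkβca replicates 1 and 2 and combined replicate 2. Klrd1 had 40 counts with the active kinase and 20 without. Gzma had 12 and 1, with 8 of them in Ikkβca replicate 1. The other members of this class below the filter were Nkg7 with 20 and 42 counts, Gzmb with 5 and 9, and Klrb1c with 9 and 7. With no count filter edgeR called none of these over both backgrounds (adjusted p = 0.461 to 0.922).

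Of 20 further T and NK genes 10 were tested. Over both backgrounds edgeR called 2 higher and 1 lower, and DESeq2 called 6 higher and 1 lower. DESeq2 called 3.64% of all genes higher. In edgeR 8 of the 10 had an unadjusted p below 0.05, against 15.5% of all genes. Of the 10, 8 lay above 0 and 2 below, with a median log2 fold change of 1.97. Il7r, the IL-7 receptor chain of lymphocytes, lay at 1.001 to 3.61 CPM with the active kinase and at 0.109 to 0.406 without (log2 fold change 3.13 ± 0.35, edgeR adjusted p = 6.88e-04). Cd7, a surface protein of T and NK cells, rose by 2.62 ± 0.46 (adjusted p = 0.0129). Cd5 fell, from 64.0 to 89.4 CPM without the active kinase to 36.1 to 55.5 with it (-0.64 ± 0.11, adjusted p = 0.0125). Its level was far above that of Cd3d in every library, although Cd5 is known as a T cell protein.

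B cell genes were barely detected. Ms4a1, which encodes CD20, had no counts in any library, which allows up to 0.0120 CPM over all 12. Cd79a, a B cell receptor chain, reached at most 0.290 CPM and was at 0 in 6 libraries, and Cd79b reached at most 0.709. Blk, a kinase of B cells and some T cells, was called over both backgrounds among 2 tested genes of a further B cell list: 0.774 to 4.78 CPM with the active kinase and 0 to 0.209 without (log2 fold change 4.0 ± 0.67, edgeR adjusted p = 0.0095).

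Of the mast cell genes, Kit, the stem cell factor receptor, was at 0.895, 1.25 and 0.610 CPM in Control, 3.78, 3.72 and 2.28 in Ikkβca, 1.127, 0.308 and 1.42 in Stat3KO and 1.10, 2.38 and 1.31 in the combined group. Ikkβca lay above Control, with a log2 fold change of 1.83 ± 0.53 (edgeR adjusted p = 0.188; DESeq2 adjusted p = 0.0273). Cpa3, the mast cell carboxypeptidase, was below the filter at 0.0581 to 0.572 CPM, and its highest libraries were Control replicate 3 and Stat3KO replicate 1. Kit is also made by melanocytes and interstitial cells of Cajal. A list of 9 genes of those cells summed to 62.1 to 72.2 CPM in Control and 54.6 to 77.9 in Ikkβca, most of it Ano1, and 0 of the 5 tested were called in either comparison, by edgeR or by DESeq2, with 0 at an unadjusted p below 0.05. Mlana and Tyr had no counts in any library, whereas Pmel had 220 counts with the active kinase and 204 without, and Dct 18 and 51. The part of these cells in the Kit values was not tested. Among 4 tested genes of a further mast cell, eosinophil and basophil list, 0 were called by edgeR over both backgrounds, 2 had an unadjusted p below 0.05 and 0 were called by DESeq2. Of the 4, 3 lay below 0, with a median log2 fold change of -1.04, the opposite direction to Kit. Tpsb2, a mast cell tryptase, had 58 counts with the active kinase and 131 without, and Mcpt4, a mast cell chymase, 40 and 104. Other genes of that list went the other way. Il5ra had 34 counts with the active kinase and 0 without, and Hdc 64 and 25, with 46 of its counts in Ikkβca replicate 1.

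Ligands that act on receptors of these cells were a separate list of 19 genes, 12 of them tested. Over both backgrounds 4 were called higher and 0 lower. Ccl20, which draws CCR6-bearing cells including Langerhans cell precursors, lay at 1.60 to 12.6 CPM with the active kinase and at 0 to 0.314 without (log2 fold change 5.36 ± 0.55, edgeR adjusted p = 3.93e-04). It was higher in the 3 combined libraries, 9.76 to 12.6 CPM, than in the 3 Ikkβca libraries, 1.60 to 3.36, the opposite order to Cd207. Csf1, the macrophage growth factor, rose by 1.06 ± 0.19 (adjusted p = 0.0157). Cxcl5, a ligand of CXCR2, had 690 counts with the active kinase and 3 without (edgeR adjusted p = 1.9e-04). The ratio was 240 with an exact 95% counting interval of 81.7 to 1166, which covers counting error only. Libraries with the active kinase ran from 1.05 to 8.43 CPM. Cxcl1, another CXCR2 ligand, had 200 counts against 8 (adjusted p = 0.0098).

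For loss of Stat3 alone no member passed the test. In Stat3KO against Control 0 of 32 were called by edgeR, 0 had an unadjusted p below 0.05 and 0 were called by DESeq2. Of all genes tested edgeR called 0%, 7.5% had an unadjusted p below 0.05, and DESeq2 called 0.283% higher and 0.425% lower. The median log2 fold change of the members was -0.26. Cd207 and Cd86 were lower in all 3 Stat3KO libraries than in all 3 Control libraries, as were 6.1% of all genes, with log2 fold changes of -0.95 ± 0.50 (edgeR adjusted p = 0.704) and -0.94 ± 0.57 (adjusted p = 0.743). Over both IKKβ backgrounds 0 members were called for Stat3 loss by edgeR and 0 by DESeq2, with 8 at an unadjusted p below 0.05, and 30 of 32 lay below 0 with a median of -0.51. The 6 endothelial markers all lay below 0 in that comparison, with a median of -0.90, 5 at an unadjusted p below 0.05 and 0 called by edgeR or by DESeq2. They summed to 34.9 to 43.1 CPM in Stat3KO and 52.1 to 95.5 in Control. The tested adipocyte, nerve and smooth muscle genes also all lay below 0 over both IKKβ backgrounds, with medians of -5.34, -1.39 and -0.80. By edgeR 0 of them were called, and by DESeq2 3, 2 and 1 were called lower. Of 6 fibroblast genes 5 lay below 0 (median -0.34), and of 6 skeletal muscle genes 2 did (median 0.26). The part of these lists in the leukocyte values was not tested. Of all genes edgeR called 0.262%, DESeq2 1.13% higher and 1.5% lower, 12.7% had an unadjusted p below 0.05, and 48.1% lay above 0.

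In the combined group Itgax, Cd207, Cd86 and Flt3 had means between those of Control and Ikkβca. Against Control 0 members were called by edgeR, 3 had an unadjusted p below 0.05 and 0 were called by DESeq2. Of all genes edgeR called 0.566% higher and 0.318% lower, 11.5% had an unadjusted p below 0.05, and DESeq2 called 1.53% higher and 1.49% lower. Flt3 was the single member whose combined libraries all lay above Control, as they did in 7.2% of all genes (log2 fold change 2.21 ± 0.73, edgeR adjusted p = 0.243). Itgax had 1.28 ± 0.44 (adjusted p = 0.265) and Cd207 1.43 ± 0.49 (adjusted p = 0.261). The comparisons with Control share its 3 libraries.

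Against Ikkβca 31 of 32 tested members lay lower in the combined group, with a median log2 fold change of -0.93, but 0 were called by edgeR or by DESeq2 and 7 had an unadjusted p below 0.05. Of all genes 47.7% lay above 0, edgeR called 0%, DESeq2 called 0.347% higher and 0.524% lower, and 9.88% had an unadjusted p below 0.05. In 13 members all combined libraries lay below all Ikkβca libraries, where 7.54% of all genes did. They included Ptprc (-1.45 ± 0.54), Laptm5 (-1.09 ± 0.42), Itgax (-1.002 ± 0.42), Cd207 (-1.08 ± 0.47) and Cx3cr1 (-1.22 ± 0.38), the last with the smallest adjusted p of the members (edgeR adjusted p = 0.417). All 6 endothelial markers also lay lower in the combined group than in Ikkβca, with a median of -0.94 and 1 at an unadjusted p below 0.05. Their summed level was 26.4 to 81.0 CPM against 40.1 to 180. Every tested gene of the fibroblast, smooth muscle, skeletal muscle, adipocyte and nerve lists also lay lower. The medians were -0.42, -0.55, -2.26, -4.78 and -1.01, with 0 called by edgeR or by DESeq2. Of 6 epithelial genes 4 lay lower, with a median of -0.13. The part of these lists in the leukocyte values was not tested.

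Against Stat3KO 0 members were called by edgeR, 7 had an unadjusted p below 0.05 and 3, Cd207, Itgax and Cd86, were called by DESeq2, where 0.41% of all genes were called higher and 0.0495% lower by edgeR, 1.34% higher by DESeq2, and 8.96% had an unadjusted p below 0.05. In 5 members, Cd52, Cx3cr1, Itgax, Cd207 and Cd3d, all combined libraries lay above all Stat3KO libraries, as in 6.06% of all genes. Cd207 had a log2 fold change of 2.39 ± 0.51 (edgeR adjusted p = 0.0974), Itgax 2.08 ± 0.45 (edgeR adjusted p = 0.105) and Cd86 1.91 ± 0.57 (edgeR adjusted p = 0.271). Without combined replicate 1, edgeR called 2 members, Cd207 at 2.78 (adjusted p = 0.0185) and Itgax.

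Whether the effect of the active kinase differed with Stat3 was tested as the interaction. No member was called by edgeR or by DESeq2, and of all genes tested edgeR called 0% and DESeq2 0% in the positive and 0.0354% in the negative direction. For Itgax the difference of the 2 effects was -0.20 ± 0.62, for Cd207 -0.13 ± 0.70, for Cd86 -0.12 ± 0.80 and for Flt3 -1.42 ± 1.02 (log2, edgeR adjusted p = 1.0 for each). With standard errors of 0.62 to 1.02, a 2-fold difference between the effects would not be detectable here.

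Libraries of a group differed in the summed level of the leukocyte genes. The summed level of all 43 members was 87.4, 189 and 105 CPM in Control, 227, 224 and 251.3 in Ikkβca, 129, 149 and 63.8 in Stat3KO and 78.3, 184 and 146 in the combined group. Control replicate 2 was the highest of its group for 29 of 32 tested members, and Stat3KO replicate 3 and combined replicate 1 were each the lowest of theirs for 26. The summed dendritic and Langerhans genes were at 8.28, 13.5 and 6.29 CPM in Control and 41.0, 42.8 and 37.7 in Ikkβca, so these groups stood apart. They also stood apart in the pan-leukocyte sum (21.2 to 49.9 against 70.5 to 87.4 CPM) and the mast cell sum (1.06 to 1.46 against 2.54 to 4.21). The mast cell sum holds 2 genes and was mostly Kit. Kit had means of 0.920 CPM in Control and 3.26 in Ikkβca, and Cpa3 0.316 and 0.294. In the sum over the macrophage and monocyte members, 46.9 to 114 against 81.5 to 108 CPM, Control and Ikkβca overlapped. The further macrophage and monocyte list summed to 39.5 to 108 CPM in Control and 114 to 360 in Ikkβca, without overlap.

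Ratios within a library set the classes side by side. Per count of Ptprc there were 5.04 to 7.41 counts of C1qa in Control and 1.52 to 3.71 in Ikkβca, and in these 2 groups the ranges did not overlap. For Cd207 the same ratio was 0.975 to 2.44 in Control and 2.37 to 3.75 in Ikkβca, which overlapped. The Cd207 ratio was 0.75 to 1.36 in Stat3KO and 2 to 5.61 in the combined group, without overlap. The C1qa ratio was 4.83 to 5.15 in the combined group, which overlapped Control. In every Stat3KO library the C1qa ratio was higher than that, at 5.45 or more. No test was made of these ratios.

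Markers of stromal cells were present in all groups. The fibroblast list summed to 700 to 2284 CPM in Control and 557 to 1384 in Ikkβca, the endothelial list to 52.1 to 95.5 and 40.1 to 180, and the skeletal muscle list to 4.001 to 224 and 38.6 to 628. Over both backgrounds 0 of 6 genes in each of these lists were called by edgeR or by DESeq2, with 2, 2 and 0 at an unadjusted p below 0.05. Their part in the leukocyte values was not tested.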

How the data were processed

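PolyA RNA of 12 libraries, 3 per genotype group, was read as gene counts. Per the submitters' processing notes, cutadapt 1.13, STAR, HTSeq 0.6.1p1 and DESeq2 were used with mm10; the deposited files hold unscaled whole read counts per gene symbol, and strand and annotation are not given in the sources used here. No other deposited values were used.

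Counts of 14134 genes kept by filterByExpr (minimum count 10) were scaled with TMM and fitted with edgeR 4.0.16 (quasi-likelihood, robust, limma 3.58.1, R 4.3.3) on 4 group means over all 12 libraries. Contrasts were 5 differences between groups, the interaction, and each genotype change over both backgrounds of the other. Genes were called at a Benjamini-Hochberg adjusted p below 0.05 over all genes tested; errors are SE of the log2 fold change. RPKM used the longest coding transcript of GENCODE M21, which also gave gene positions; RefSeq (GRCm38.p6) gave promoters for 30 members. Library totals were 14816468 to 30188363 counts, and members had 0 to 3670 counts in all, so counting error is large for the 14 members under 100. No library repeated another of its group (chi-square per degree of freedom at least 26.1, genes with at least 20 counts).

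Members, cell class lists and the naming rule were chosen with earlier results of these data known. The rule gives every library's value for members called in any comparison and for fixed defining genes of each class. It adds up to 4 called genes of each further list. Other members are given by range or counts, some only within the figures of their class. Some defining genes below the filter, such as Klrd1 and Cd79a, are also given by range. Itgam, Csf1r, Ctss, Lyz2, Cd74, H2-Ab1, Clec10a, Clec4a3, Epcam, Tpsb2, Mcpt4, Il5ra, Hdc, Pmel and Dct were added after their values were seen. Adgre1 (as Emr1) apart, Hbb-bs, Hcar2, Ighm, Jchain, Ly6g, Siglecf and Spi1 had no row under the symbol listed. Alternatives changed the scaling, the filter, the test (DESeq2 1.42.0), the groups fitted, a replicate block and the libraries included. The scripts were tested on simulated data.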

Additional observations from a re-analysis of the deposited data

How the results depend on the processing

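Member counts are given as edgeR calls unless stated. For Ikkβca against Control (2 members) the count was 0 with library totals, 7 with DESeq2, 0 without both libraries rich in stomach transcripts and 5 with the Krt4 and Krt13 share as a covariate, an alternative chosen after seeing the data; leaving out 1 library gave 0 to 3. Over both Stat3 backgrounds (5 members) it was 3, 9, 3 and 10 in the same order, and leaving out 1 library gave 2 to 6. For the combined group against Stat3KO (0 members) DESeq2 gave 3, the keratin covariate 3, and leaving out 1 library 0 to 2. The other 5 comparisons gave 0 members under each alternative run. DESeq2, fitted without the count filter to all 23337 genes listed, called 424 genes for Ikkβca against Control and 834 over both backgrounds, where edgeR called 135 and 384 of the 14134 genes tested. For 64 log2 fold changes of single members, 1261 alternative values included 0 reversed calls, 49 lost calls, 26 gained calls and 39 changes of sign with no call under either setting. Causes were not tested. Scaling by library totals moved the median of all genes by at most 0.07 (log2). Depth limits the 11 members below the filter and Cd3d, Cd4, Cd2 and Lck.

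Replicate numbers were not taken as pairs, since the labels tie them to no shared animal or batch and deviations of same-numbered libraries correlated at -0.41 to 0.45 (median 0.10, 9 of 18 pairs over 0.1), against -0.54 to 0.39 for different numbers (median -0.06, 12 of 36 pairs over 0.1). The numbers do follow sex transcripts, with Xist in replicate 1 and Ddx3y in replicates 2 and 3 of every group. With the replicate block 2 members were called for Ikkβca against Control and 7 over both backgrounds (Laptm5, Cd52 and Coro1a gained, Cx3cr1 lost), and 0 in every other comparison.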
